A study of Drosophila melanogaster with 8 samples.

Results

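The genes described here are the core of the fly JAK/STAT pathway: the ligand genes upd1, upd2 and upd3, the receptor gene dome, the kinase gene hop and the transcription factor gene Stat92E. They were chosen by FlyBase symbol, and all 6 were found among the 13932 gene identifiers of the tables. The cells were S2R+, a line of Drosophila melanogaster embryonic origin with macrophage-like traits, and an S2R+ line in which STAT92E was knocked out with CRISPR. The 8 libraries form 4 groups of 2, namely wild-type cells in control media, wild-type cells with upd ligand, mutant cells in control media and mutant cells with upd ligand, all harvested after 1 hour. The labels describe neither the edit in Stat92E, nor whether the mutant line is a single clone, nor how the ligand was made. They also do not say whether replicates were separate cultures, so the tests measure how far these libraries scatter, and that scatter may be technical only.

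JAK/STAT signalling carries a message from a secreted protein to the nucleus in a few steps. The Unpaired proteins bind Domeless, a receptor of the type I cytokine family, and the bound receptor activates Hopscotch, the only Janus kinase of the fly. Hopscotch phosphorylates STAT92E, which then dimerises, enters the nucleus and switches on its targets. In fly blood cells the pathway takes part in proliferation and in the response to wounds and infection, and upd3 in particular is made by blood cells after challenge.

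Library totals ranged from 8285533 to 30352948 counts, and the wild-type libraries of replicate 1 (8285533 and 9142736 counts) were shallower than those of replicate 2 (28465332 and 30352948). Levels are given in CPM, counts scaled to library size after TMM normalization, and in RPKM, the deposited value per kilobase of gene length, which is the only scale used here to compare different genes. A floor of 3 counts corresponds to between 0.0961 and 0.379 CPM in single libraries, and this floor covers counting error only. Mitochondrially encoded transcripts took between 12.8% and 22.1% of the counts. In wild-type libraries they took 20.2% and 22.1% in replicate 1, and 14.0% and 12.8% in replicate 2. Of 12 blood cell markers, between 9 and 12 had at least 1 count in each library, which a single read satisfies. Crq, a phagocytic receptor gene, was at 49.5 RPKM or more and the peroxidasin gene Pxn at 21.8 RPKM or more in every library. In contrast, the plasmatocyte receptor gene NimC1 was at 0 in 7 of 8 libraries and He in 5, and eater and Hml reached at most 0.126 and 0.923 RPKM. Of 2 lamellocyte markers, PPO3 was at 12.8 to 17.3 RPKM and atilla at 0 in 7 of 8 libraries. The summed level of the blood cell markers was 186 and 194 RPKM in the wild-type libraries of replicate 1. It was 299 and 300 RPKM in those of replicate 2, so the wild-type replicates differed widely too. In mutant libraries it was 105 to 140 RPKM. The difference between the lines lay largely in the collagen genes Col4a1 and vkg. A list of 3 germline markers also differed, at 17.3 to 20.7 RPKM in wild-type and 0.599 to 3.05 RPKM in mutant libraries, nearly all of it bam. The part of either in the differences between the lines described below was not tested.

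All but 1 of the 6 genes lie on the X chromosome. On dm6, in the Ensembl annotation, upd2 (FBgn0030904) spans X positions 18240654 to 18243284 on the minus strand, upd3 (FBgn0053542) positions 18277233 to 18284596 on the plus strand and upd1 (FBgn0004956) positions 18305354 to 18309291 on the minus strand. The ligand genes thus form a cluster of 68.6 kb, with 33.9 kb between upd2 and upd3 and 20.8 kb between upd3 and upd1. The receptor gene dome (FBgn0043903) lies at X 19676061 to 19683518 and the kinase gene hop (FBgn0004864) at X 11360930 to 11368098, both on the minus strand. Stat92E (FBgn0016917) occupies 16989 bases of chromosome arm 3R, from 20535323 to 20552311 on the minus strand, and has 11 annotated transcripts. The counts are per gene, so they do not separate these isoforms. No other annotated gene overlaps any of the 6, apart from an INE-1 transposon fragment within Stat92E.

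Stat92E, the gene targeted in the mutant line, remained strongly transcribed there. Wild-type libraries held 161 and 178 CPM of it without ligand and 157 and 160.0 CPM with upd. Mutant libraries held 103 and 114 CPM without ligand and 111 and 121 CPM with upd. All mutant values lay below all wild-type values, and none was near 0. How many of all tested genes separate the lines in this way was not counted, here or for the other members. Such separation is therefore a description only. A CRISPR edit can stop a protein from being made without removing its transcript, and counts over the whole gene say nothing about the edited part, so these levels do not check the label. Between 1274 and 5409 counts per library lay on Stat92E, which had the highest mean RPKM of the 6 genes in every group.

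Among the ligand genes, upd1 was essentially silent, while upd2 and upd3 were transcribed and stood far lower in the mutant line. For upd1, the founding ligand of the family that acts in embryonic segmentation, 2 counts were found in 156074486. They were 1 count in replicate 1 of wild-type cells in control media and 1 count in replicate 1 of mutant cells with upd, and the other 6 libraries had none. All 8 libraries were therefore under the floor of 3 counts, upd1 did not pass the filter on low counts, and no fold change is given for it. The RNA sequenced here thus held almost no upd1 transcript, with or without ligand in the medium.

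The gene upd2, whose product is known in the fly fat body as a leptin-like signal of the fed state, had 9.36 CPM (74 counts) and 1.77 CPM (54 counts) in the wild-type control libraries. Wild-type libraries with upd had 10.3 CPM (85 counts) and 8.68 CPM (271 counts). The mutant control libraries had 0.239 CPM (5 counts) and 1.16 CPM (19 counts), and those with upd had 0.756 CPM (15 counts) and 1.28 CPM (30 counts). Every mutant library lay below every wild-type library, but replicate 2 of wild-type control media, at 1.77 CPM, stood close to the highest mutant library and far from the other wild-type libraries. That library is one of the deep ones, so its low value rests on 54 counts in 28465332. In the mutant line the counts were so few that a handful of reads moved the level several-fold.

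The gene upd3, the ligand that damaged gut and activated blood cells secrete, was the most abundant of the ligand transcripts. Wild-type libraries held 27.4 and 12.8 CPM of it without ligand, and 24.5 and 19.4 CPM after upd. Mutant libraries held 2.92 and 4.88 CPM of it without ligand, and 3.18 and 8.13 CPM after upd. The lines did not overlap, and within wild-type cells the media did, with both control libraries outside the range of the libraries with upd. Replicate 2 of wild-type control media was the lowest wild-type library for upd3 as it was for upd2, and replicate 2 of mutant cells with upd was the highest mutant library for both genes.

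The receptor gene dome varied far less than upd2 and upd3, and about as much as Stat92E. The wild-type control libraries showed 78.4 and 71.2 CPM, and those with upd 76.4 and 86.8 CPM. The mutant control libraries showed 65.8 and 57.3 CPM, and those with upd 62.1 and 50.3 CPM. On this scale every mutant library was below every wild-type library, whereas the deposited RPKM values of the lines, 12.1 to 16.6 in wild-type and 9.03 to 12.6 in mutant cells, overlapped. Between the highest and the lowest of the 8 libraries dome differed 1.72-fold.

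The kinase gene hop had the most even level of the tested members. The wild-type control libraries showed 13.8 and 18.0 CPM of it, and those with upd 15.5 and 14.3 CPM. Among mutant libraries the controls showed 14.8 and 18.4 CPM, and those with upd 12.9 and 13.9 CPM. Highest and lowest library differed 1.43-fold, and the lines overlapped over nearly their whole range. With upd, both mutant libraries were below both wild-type libraries, and both were also below the mutant libraries in control media. The gaps were small, at 13.9 against 14.3 CPM and 13.9 against 14.8 CPM, and neither difference was called in the tests below.

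**Figure D1:**
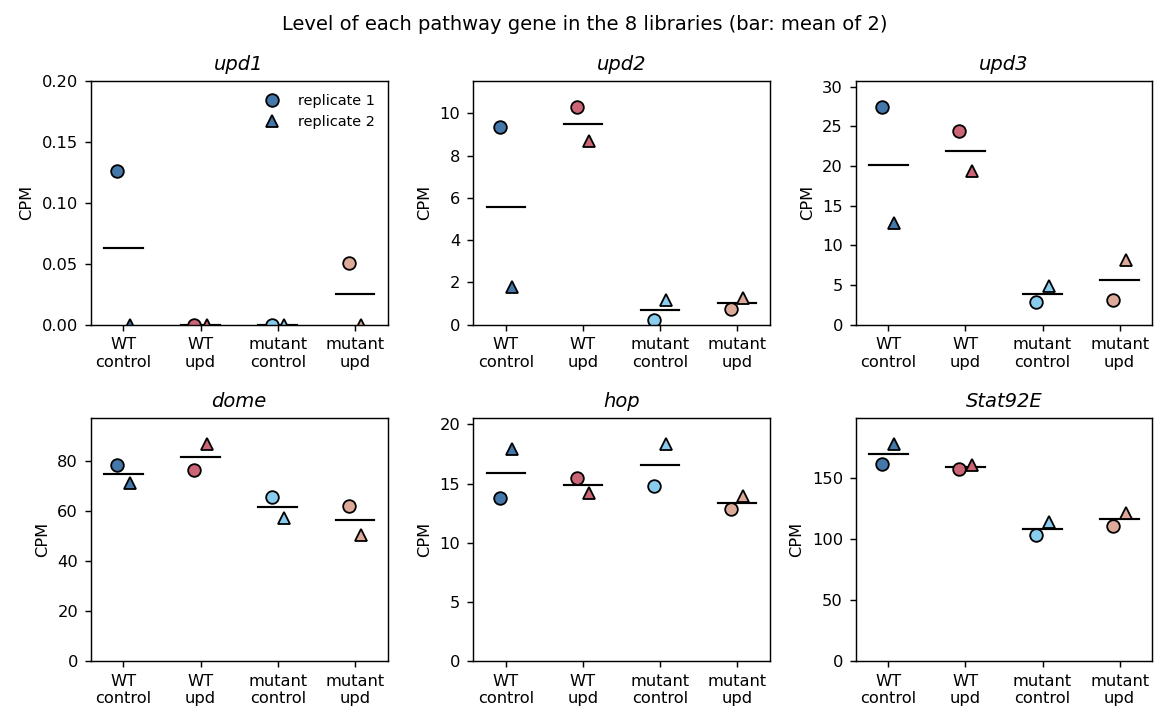
Level of each of the 6 genes in CPM (linear axes from 0) in the 4 groups, with replicate 1 as circles, replicate 2 as triangles and the mean of the 2 libraries as a bar. The mutant libraries of upd2, upd3, dome and Stat92E sit below all wild-type libraries. The share of all tested genes that do so was not counted, and 24% of them were called between the lines averaged over both media. The level of hop is even across the groups, and the upd1 panel, whose axis ends at 0.2 CPM, shows only 2 libraries above 0.

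Per length, the transcription factor came first, the receptor next and the kinase well below, in both lines. In wild-type control media the mean levels were 36.3 ± 6.7 RPKM for Stat92E (SD, n = 2), 13.7 ± 0.66 RPKM for dome, 7.87 ± 3.25 RPKM for upd3, 2.84 ± 0.85 RPKM for hop, 2.38 ± 2.14 RPKM for upd2 and 0.0197 ± 0.0278 RPKM for upd1. The neighbours hop and upd2 did not differ beyond their spread, and with upd their order turned, at 2.49 ± 0.19 RPKM for hop and 4.04 ± 0.06 RPKM for upd2. In the mutant line in control media the order was 24.5 ± 2.3 RPKM for Stat92E, 11.95 ± 0.88 RPKM for dome, 3.12 ± 0.54 RPKM for hop, 1.67 ± 0.63 RPKM for upd3 and 0.339 ± 0.320 RPKM for upd2. The level of upd3 was thus above that of hop in 4 of 4 wild-type libraries and in 1 of 4 mutant libraries. With upd the mutant values were 23.2 ± 3.0, 9.61 ± 0.81, 2.22 ± 0.27, 2.17 ± 1.46 and 0.436 ± 0.185 RPKM for the same genes in the same order, so hop and upd3 could not be ordered there.

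Ratios within a library do not depend on how libraries are scaled, but they do depend on gene length. The deposited length of Stat92E is 4200 bases, while its annotated exons together cover 5210 bases. For dome and hop these lengths agree. The size of the Stat92E ratios therefore depends on the length used, but their comparison between the lines does not. Stat92E exceeded hop 11.9-fold to 14.1-fold per length in the wild-type libraries and 7.45-fold to 10.5-fold in the mutant libraries, without overlap. Stat92E exceeded dome 2.14-fold to 2.89-fold in wild-type and 1.82-fold to 2.80-fold in mutant libraries, which overlapped. The ratio of dome to hop, 4.11 to 6.31 in wild-type and 3.23 to 5.01 in mutant libraries, overlapped too. Of the ratios between receptor, kinase and transcription factor, only that of Stat92E to hop separated the lines in these 8 libraries. Compared with all 8126 tested genes, Stat92E ranked above 75.7% in wild-type control media and above 66.5% in mutant control media, dome above 53.7% and 48.9%, hop above 24.1% and 25.4%, upd3 above 40.3% and 20.0%, and upd2 above 22.3% and 9.60%.

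**Figure D2:**
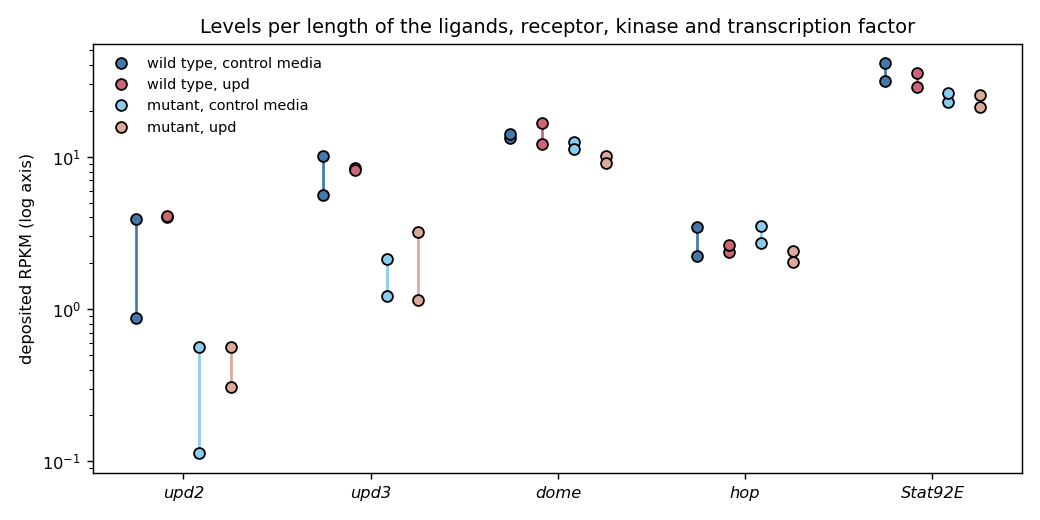
Deposited RPKM (log axis) of the 5 genes that passed the filter on low counts, with each library as a point, each group in its own colour and a line joining the 2 libraries of a group. Stat92E lies between 21.1 and 41.0 RPKM and dome between 9.03 and 16.6 RPKM, while upd2 spans from 0.113 to 4.08 RPKM.

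Whether the ligand alters transcription of its own pathway was asked by comparing upd with control media within each line. None of the 5 tested genes passed in either line. The test was edgeR's quasi-likelihood test over all 8126 genes that passed the filter, in 1 fit of the 8 libraries, and a gene is called at an adjusted p under 0.05 (Benjamini and Hochberg). In wild-type cells the log2 difference with upd was 0.84 ± 0.78 for upd2 (SE, n = 2 per group), 0.14 ± 0.48 for upd3, 0.13 ± 0.17 for dome, -0.11 ± 0.22 for hop and -0.09 ± 0.14 for Stat92E, each with an adjusted p of 1. In mutant cells it was 0.60 ± 0.91 for upd2, 0.55 ± 0.51 for upd3, -0.13 ± 0.17 for dome, -0.31 ± 0.22 for hop and 0.10 ± 0.14 for Stat92E, each with an adjusted p of 0.992. The background was equally empty in this fit, which has no replicate term and called 0% of all genes in each line. At an unadjusted p under 0.05 it counted 148 genes in wild-type and 266 in mutant cells, none of them a member. Both counts are below a share of 0.05 of the 8126 genes, which such a threshold passes when nothing differs. DESeq2 called 9 genes (0.0802%) and 2 genes (0.0178%). With replicate number within each line added as a term, edgeR called 111 genes in wild-type cells and more in mutant cells, as given further below. Again no member was called in either line. The empty background therefore does not show that upd had no effect on transcription.

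For dome, hop and Stat92E the SEs were at most 0.22 on the log2 scale, whereas those of upd2 and upd3 were between 0.48 and 0.91. Changes of a ligand gene by less than several-fold were therefore not detectable. Small changes of dome, hop or Stat92E could be missed too, since no gene passed in either line. In wild-type cells even the feedback inhibitor gene Socs36E differed by 1.97 ± 0.39 without a call (edgeR adjusted p = 0.722). The upd2 difference in wild-type cells rested on replicate 2. Within the shallow libraries of replicate 1 the log2 difference was 0.14, and within the deep ones of replicate 2 it was 2.23. Without replicate 2 of control media it was 0.02, and without replicate 1 it was 2.41. Replicate number in wild-type cells goes with depth, with the mitochondrial share and with the summed blood cell markers, which cannot be told apart here. It was made a term in a fit of the 4 wild-type libraries, which leaves 1 residual degree of freedom. There upd2 was called higher by 1.27 ± 0.24 (edgeR, adjusted p = 1.19e-05). That fit called 4.36% of its 7748 genes, with 3.11% called higher, and it averages 2 values as far apart as those above. The remaining 4 members were not called in it.

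Between wild-type libraries of equal replicate number, upd3 differed by -0.16 in the shallow pair and 0.60 in the deep pair, dome by -0.04 and 0.29, hop by 0.17 and -0.33, and Stat92E by -0.03 and -0.15. Only for Stat92E and upd2 did both pairs share a sign. In mutant cells, libraries of equal replicate number differed by 1.33 and 0.14 for upd2, 0.12 and 0.72 for upd3, -0.08 and -0.19 for dome, -0.20 and -0.39 for hop and 0.11 and 0.10 for Stat92E. The sign was shared for all 5 genes there, although Stat92E turned to -0.0274 when libraries were scaled by their totals alone, a setting that shifts the median of all genes by -0.13. How often the pairs share a sign among all tested genes was not counted. The shared signs are therefore a description and no sign of a response.

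An interaction term compared the responses of the lines. The wild-type response minus the mutant response was 0.24 ± 1.22 for upd2 (log2, SE), -0.41 ± 0.70 for upd3, 0.26 ± 0.24 for dome, 0.20 ± 0.31 for hop and -0.20 ± 0.20 for Stat92E. Each had an adjusted p of 1.00 in edgeR's quasi-likelihood test, which called 0% of all genes, counted 88 genes at an unadjusted p under 0.05 and had no member among them. The 88 genes too are below a share of 0.05 of all genes. DESeq2 also called 0 genes.

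Between the lines, upd3, upd2 and Stat92E were lower in the mutant, dome slightly so, and hop was at a like level. The comparison asks how the pathway's own genes are transcribed in the line labelled as a STAT92E knockout. Averaged over both media, which sets 4 libraries against 4, upd3 fell by 2.15 ± 0.36 on the log2 scale (SE, edgeR adjusted p = 0.00353), a 4.43-fold lower level. For upd2 the difference was -3.08 ± 0.61 (adjusted p = 0.00793), an 8.44-fold lower level. Stat92E itself was lower by a log2 difference of -0.55 ± 0.10 (adjusted p = 0.00521), or 1.46-fold. For dome the difference was -0.41 ± 0.12 (adjusted p = 0.0380), or 1.33-fold, and for hop it was -0.05 ± 0.15 (adjusted p = 0.855). In this comparison 24% of all tested genes were called, 13.6% lower and 10.4% higher, so a call as such was common, and 4 of the 5 tested members were called lower. The sixth, upd1, could not be tested. Because upd2 and upd3 passed the filter with counts that lie mainly in the wild-type libraries, the number of members called is no support by itself.

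The size of these differences set the members apart from each other more than the calls did. The ligand genes differed several-fold, the transcription factor and the receptor by less than 1.5-fold. The calls for upd3, upd2 and Stat92E held without any single library, with log2 differences of -2.56 to -1.84, -3.81 to -2.29 and -0.59 to -0.51. The call for dome was lost without any of 7 of the 8 libraries (adjusted p from 0.0554 to 0.139 among these), and was kept only without replicate 1 of mutant cells with upd. It was also lost with scaling by library totals (adjusted p = 0.0648) and in limma on log2(RPKM + 1) (adjusted p = 0.128), so dome is at the limit of what these libraries resolve.

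**Figure D3:**
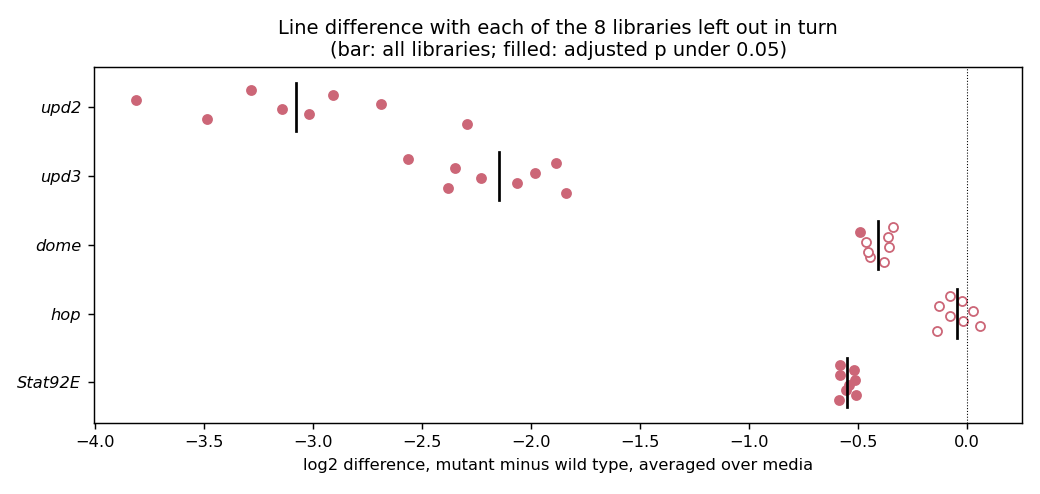
Log2 difference between the mutant and the wild-type line averaged over both media, with each of the 8 libraries left out in turn (points, filled where the adjusted p is under 0.05) and with all libraries (bars). All points of upd2, upd3 and Stat92E are filled and below 0, those of dome are below 0 but mostly open, and those of hop lie on either side of 0.

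By medium, the line difference of upd3 was -2.35 ± 0.52 in control media (adjusted p = 0.0261) and -1.94 ± 0.50 with upd (adjusted p = 0.0420). For upd2 it was -2.96 ± 0.89 in control media (adjusted p = 0.0785) and -3.20 ± 0.85 with upd (adjusted p = 0.0464). For Stat92E it was -0.65 ± 0.14 (adjusted p = 0.0253) and -0.45 ± 0.14 (adjusted p = 0.0801), for dome -0.28 ± 0.17 (adjusted p = 0.362) and -0.54 ± 0.17 (adjusted p = 0.0794), and for hop 0.05 ± 0.22 (adjusted p = 0.916) and -0.15 ± 0.22 (adjusted p = 0.724). Of the 5 tested members 2 were called lower in control media, where edgeR called 8.97% of all genes (5.7% lower and 3.27% higher), and 2 with upd, where it called 10.5% (6.53% lower and 3.99% higher). In control media upd2 was called by DESeq2 (-2.99, adjusted p = 0.00123), which called 8.54% of its genes lower. In edgeR the upd2 difference in control media ranged from -4.42 to -1.39 when single libraries were left out. It was called only without the low wild-type control library, replicate 2 (-3.78, adjusted p = 0.0284), and was smallest without replicate 1 of that group (-1.39, adjusted p = 0.398). The control-media call of Stat92E was lost without any of the 4 control-media libraries (log2 difference -0.72 to -0.57). That of upd3 was lost when the first wild-type control library was dropped (-1.73, adjusted p = 0.116), and without replicate 1 (-2.02, adjusted p = 0.166) or 2 (-2.75, adjusted p = 0.0597) of mutant control media. With upd, the call of upd2 was lost without any of the 4 libraries with upd (-3.63 to -2.88, adjusted p from 0.105 to 0.183), and that of upd3 without replicate 1 (-1.78, adjusted p = 0.129) or 2 (-2.10, adjusted p = 0.102) of wild-type cells with upd or replicate 1 of mutant cells with upd (-1.43, adjusted p = 0.154).

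**Figure D4:**
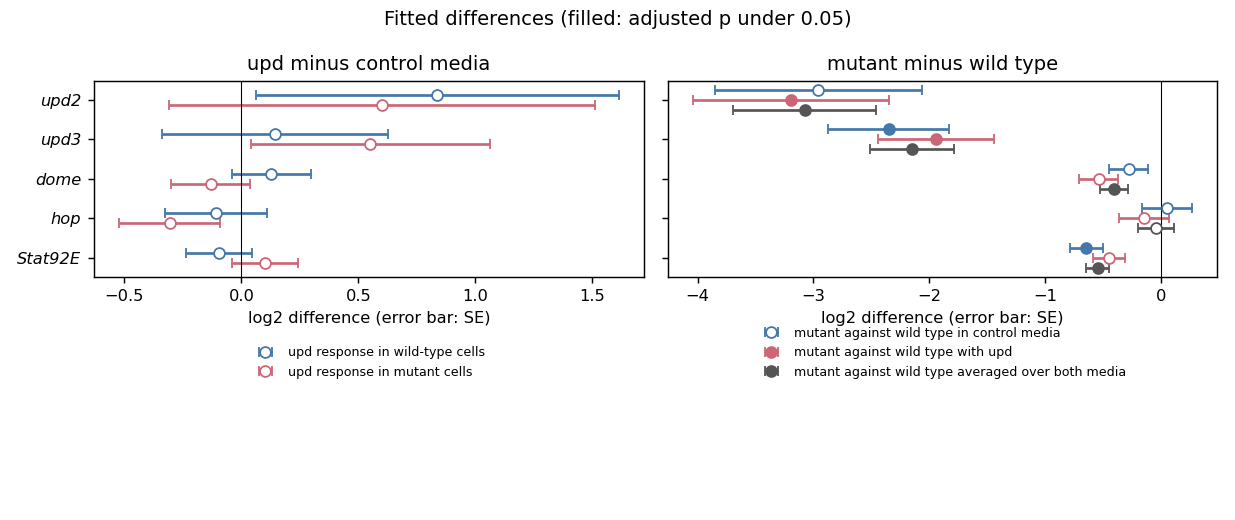
Fitted log2 differences (points, with SE as error bars) of upd minus control media in each line (left) and of the mutant minus the wild-type line in each medium and averaged (right), filled where the adjusted p is under 0.05. No point is filled on the left, and the points of upd2 and upd3 on the right lie between -3.20 and -1.94.

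Other genes of the pathway were taken from a list of 13 regulators, all of which were tested. Averaged over media, 2 of them were called lower in the mutant line and 1 higher, against 13.6% and 10.4% of all genes, and the median log2 difference of the list was -0.08 beside 0.02 for all genes. Those called lower were Socs36E, which encodes the feedback inhibitor of the receptor complex (-3.20 ± 0.29, adjusted p = 1.51e-04), and et, which encodes a short receptor related to Domeless that dampens signalling (-3.43 ± 0.56, adjusted p = 0.00314). BRWD3, a bromodomain protein gene that promotes STAT92E activity, was called higher (0.65 ± 0.17, adjusted p = 0.0276). The most abundant of the others did not pass. Asrij, an endosomal protein gene of blood cells, differed by 0.26 ± 0.11, Hrs, which sorts receptors on endosomes, by -0.10 ± 0.14, Socs44A by 0.16 ± 0.11, the SUMO ligase gene Su(var)2-10 by 0.25 ± 0.10 and Socs16D by -0.08 ± 0.29. With upd, no regulator was called in either line, and Socs36E had the largest wild-type difference of the list, 1.97 ± 0.39 (adjusted p = 0.722).

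Transcripts of dome and et, full and short receptor, were also set against each other, a pair singled out after its values were seen. The annotated genes are 0.169 kb apart on the same strand of the X chromosome, et downstream of dome. The other end of et overlaps the end of Zw on the opposite strand, so reads there cannot be assigned for certain. Wild-type control libraries held 4.68 and 7.09 CPM of et, and those with upd 4.85 and 7.17 CPM. Mutant control libraries held 0.765 and 0.427 CPM of et, and those with upd 0.958 and 0.0855 CPM, the last value resting on 2 counts. Per length, dome exceeded et 4.95-fold to 8.27-fold in wild-type libraries and 32.0-fold to 290-fold in mutant libraries, so the ratio of full receptor to short receptor transcripts did not overlap between the lines.

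Of a list of 20 known targets, 14 were tested. Averaged over media, 9 were called lower in the mutant line and 1 higher, where 13.6% of all genes were called lower and 10.4% higher. The median log2 difference of the list was -0.72 beside 0.02 for all genes. The list was chosen with earlier results of these data known, so this count is not independent of them. Those with the lowest adjusted p besides Socs36E were Tep2, which encodes a thioester protein (-4.99 ± 0.52, adjusted p = 3.12e-04), lama (-0.62 ± 0.11, adjusted p = 0.00474), Diap1, an inhibitor of apoptosis (-0.65 ± 0.12, adjusted p = 0.00505), and the metalloprotease gene Mmp1 (-2.50 ± 0.47, adjusted p = 0.00590). The polarity gene crb was the target called higher (1.14 ± 0.25, adjusted p = 0.0124). With upd, none of the 14 was called in either line. Their log2 difference was above 0 for 12 in wild-type cells (median 0.36) and for 14 in mutant cells (median 0.29). The medians of all genes were 0.001 and 0.0003, and the cause of this shift was not tested.

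Genes adjacent to the members were examined to see whether a member differed alone. Next to the 3′ end of Stat92E, and 21 bases from it, ends the metallothionein gene MtnD, which lies on the opposite strand. MtnD was at 161 to 229 CPM in wild-type libraries and at 1.83 to 16.4 CPM in mutant libraries, a log2 difference of -4.41 ± 0.61 averaged over media (edgeR, adjusted p = 0.00135). The next gene on that side, MtnE, differed by -4.37 ± 0.54 (adjusted p = 7.21e-04). On the other side of Stat92E, DPCoAC (-0.40 ± 0.40, adjusted p = 0.517) and CG5180 (-0.08 ± 0.24, adjusted p = 0.834) did not pass. The strand setting of the counting is not given, so reads that run past the end of Stat92E or MtnD cannot be assigned for certain.

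Around the ligand cluster few counts were found. The only gene of the tables between the ligand genes, CG15059, had at most 3 counts in a library, and the 3 nearest genes on each side had at most 7. None of these neighbours passed the filter on low counts, while upd2 and upd3 did. The neighbours of dome and hop were looked up after the values were seen. Ubqn, 289 bases from dome, differed by 0.03 ± 0.18 between the lines (adjusted p = 0.925), and Tim8, 346 bases from hop, by 0.33 ± 0.10 (adjusted p = 0.0521). Beyond Tim8, the scaffold gene dlg1 was lower in the mutant line by a log2 difference of -0.82 ± 0.12 (edgeR adjusted p = 0.00207) while hop was not. The next gene, CG15196, was also called lower (-0.56 ± 0.16, adjusted p = 0.0336), where 13.6% of all tested genes were called lower. Of the other tested neighbours of dome and hop, only et was called.

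**Figure D5:**
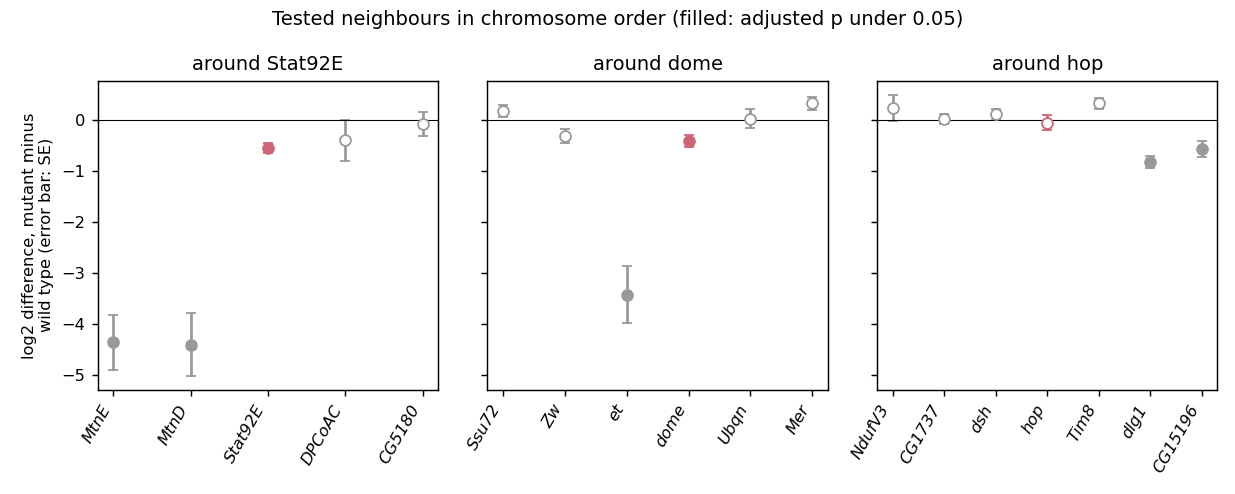
Log2 difference between the mutant and the wild-type line averaged over both media (points, with SE as error bars, filled where the adjusted p is under 0.05) for Stat92E, dome and hop (red) and the tested genes among the 3 nearest on each side (grey), in chromosome order. MtnE, MtnD and et lie between -4.41 and -3.43, far below the members beside them.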

How the data were processed

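Poly-A selected RNA of 8 libraries was sequenced. The deposited table of each library gives each FlyBase gene its count, its length and its RPKM. The submitters' processing notes name Trimmomatic 0.36, STAR 2.5.2b and the dm6 assembly. Which program counted reads, over which annotation and with which strand setting, is not given in the sources used here. The authors derived RPKM from these counts, since count over RPKM and length is a single constant in each library. Symbols and positions were taken from Ensembl's gene models on dm6. Deposited counts were tested in edgeR 4.0.16 (R 4.3.3) by its quasi-likelihood test (TMM scaling, filterByExpr, 4 group means, all 8 libraries, two-sided), which left 8126 genes and 4 residual degrees of freedom. SEs are the log2 difference divided by the square root of F. The test was tried on simulated counts. Alternatives were DESeq2 1.42.0, other scalings, no filter, limma 3.58.1 on log2 RPKM, replicate blocks and leaving out each library. The members and lists were chosen with earlier results of these data known, and the rule for naming genes took the members, 6 abundant regulators, neighbours of Stat92E and of the ligand genes, and the 3 genes most like each member, of which 1 is not reported here. Promoter and protein sequences were not used here.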

Additional observations from a re-analysis of the deposited data

How the results depend on the processing

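Groups of 2 libraries limit what could be resolved, and ligand genes in the mutant line rest on few counts. The number of genes called for upd in wild-type cells, 0 in the edgeR fit, was 9 with DESeq2, 16 without a filter, 1 with an additive replicate block, 111 with a replicate block within genotype, 338 with a replicate block in the wild-type libraries only, and 0 to 2 when single libraries were left out. In mutant cells it was 2, 18, 467 (block within genotype) and 471 (replicate block, mutant libraries only). For the difference of responses it was 4 without a filter and 33 with the block within genotype. For the mutant against the wild-type line it went from 729 to 1294 without a filter, 1247 with the additive block and 2893 with the block within genotype in control media (253 to 782 without single libraries), from 855 to 1429, 1386 and 2798 with upd (382 to 774), and from 1950 to 3465 with the block within genotype when averaged (1194 to 1722). The block within genotype compares the lines at replicate 1 only. Replicate numbers pair no cultures in the labels; replicate 1 minus replicate 2 correlated between media at r = 0.485 in wild-type and 0.514 in mutant cells across genes, and at -0.06 to 0.06 between lines. Under a replicate block, upd2 was called higher with upd in the wild-type libraries (1.27), upd2 was called in control media with the block within genotype (-4.08), Stat92E (-0.45 and -0.48) and dome (-0.55 and -0.41) were called between the lines with upd under the additive block and the block within genotype, and dome averaged over media was called under the additive block (-0.42, edgeR adjusted p = 0.0202) but not under the block within genotype (-0.28, edgeR adjusted p = 0.0515).

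Among members, the difference of Stat92E with upd in mutant cells turned to -0.0274 with library totals, -0.0767 in limma on log2(RPKM + 1) and -0.0797 on log2(RPKM + 0.1), and that of hop between the lines in control media turned from 0.05 to -0.004 (-0.00391) with the block within genotype. None of these was called in any setting, and the cause was not tested. Without single libraries, signs turned for upd3 (-0.32 to 0.77) and hop (-0.28 to 0.11) with upd in wild-type cells, for upd2 (-0.17 to 2.07), upd3 (-0.28 to 1.07) and dome (-0.29 to 0.0132) in mutant cells, for the difference of responses of upd2 (-1.23 to 1.82) and upd3 (-0.91 to 0.44), and for hop between the lines in control media (-0.12 to 0.27) and averaged (-0.14 to 0.0612). The averaged line differences of upd2, upd3 and Stat92E were called in all 8 other settings and without each of the 8 libraries. The call of Stat92E in control media was lost with library totals (-0.58) and in limma (-0.54 and -0.56). Those of upd2 (-3.17 and -2.99) and upd3 (-1.90 and -2.05) with upd were lost with library totals and in limma on log2(RPKM + 0.1).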

Other observations

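The genes whose levels followed each member most closely over the 8 libraries were looked up as a description. The 8 points share 2 lines and differ in depth, and no test was made of these correlations. Among those nearest to upd2 were CG13917 (Pearson r = 0.976 over 8 libraries) and MCU, the pore of the mitochondrial calcium uniporter (r = 0.968). Nearest to upd3 were sano (r = 0.991), lovit (r = 0.990) and Pvf2, a PDGF/VEGF-related growth factor gene (r = 0.990). Pvf2 averaged 36.8 RPKM in wild-type and 3.08 RPKM in mutant libraries. Nearest to Stat92E were the cytochrome P450 gene Cyp6a20 (r = 0.993), scf (r = 0.990) and the cytochrome P450 gene Cyp4e2 (r = 0.985). Nearest to dome were CG5823 (r = 0.965), ckd (r = 0.964) and the thrombospondin gene Tsp (r = 0.959). Nearest to hop were the epoxide hydrolase gene Jheh3 (r = 0.933), CG10505 (r = 0.897) and the tyrosine kinase gene Ack (r = 0.895).

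Among the members, upd2 and upd3 followed each other (r = 0.952), and so did upd3 and Stat92E (r = 0.903). The remaining pairs among upd2, upd3, dome and Stat92E were at r from 0.666 to 0.809, while hop followed none of them (r from -0.0751 to 0.197). The ratio of upd3 to upd2 per length was 1.997 to 6.42 in wild-type and 3.74 to 10.9 in mutant libraries.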
